A study of Mus musculus with 8 samples.

Results

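Tcf21, Hlx, Barx1, Tlx1, Nkx2-3, Nkx2-5 and Isl1 are transcription factor genes that act in the mesenchyme around the gut and in the early spleen. These 7 genes were taken by symbol from the 24675 genes of the array table that carry 1 gene symbol. Each had 1 row, and 6 of the 7 passed the filter that left 12416 genes for testing, namely a value above the array's own median on at least 4 of the 8 arrays. Levels were compared between ventral aortic tissue, which lies under the dorsal aorta, and dorsal aortic tissue, which lies between the notochord and the aortic roof. Both came from C57Bl/6 mouse embryos at embryonic day 12.5, with no mutation or treatment stated for either, and were cut by laser from stained cryosections of the same embryos. For each tissue there were 4 arrays (Affymetrix mouse Gene 2.0 ST), which the labels number as biological replicates 1 to 4. The labels do not say whether a replicate is 1 embryo or a pool, so the p-values speak of the scatter among these samples. All levels are log2 RMA intensities, and a difference is ventral minus dorsal on the log2 scale.

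The mesenchyme that surrounds the gut comes from the splanchnic layer of the lateral plate, and the spleen forms within the part of it that suspends the stomach. Tcf21 is a basic helix-loop-helix factor, and the other members are homeodomain factors. In mice, loss of Tlx1 or of Tcf21 leaves the animal without a spleen, loss of Nkx2-3 disturbs spleen and gut structure, and loss of Hlx leaves the liver and gut small. Barx1 patterns the stomach mesenchyme, Nkx2-5 is best known from the heart and also marks the spleen primordium, and Isl1 acts in motor, sensory and sympathetic neurons, pancreatic islets, heart progenitors and stomach mesenchyme.

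The stretches of DNA just before the starts of Tcf21, Hlx and Isl1 are shown because these are the members with the highest ventral minus dorsal differences. Each is the 250 bases before the RefSeq start on GRCm38.p6, read 5′ to 3′ on the minus strand, with the letters GATAA in capitals. GATAA was searched because GATA factors act in this mesenchyme and Gata6 had a pattern close to that of Tcf21 and Hlx. The regions are chr10:22820144-22820393 for Tcf21, chr1:184732494-184732743 for Hlx and chr13:116309689-116309938 for Isl1.
Tcf21: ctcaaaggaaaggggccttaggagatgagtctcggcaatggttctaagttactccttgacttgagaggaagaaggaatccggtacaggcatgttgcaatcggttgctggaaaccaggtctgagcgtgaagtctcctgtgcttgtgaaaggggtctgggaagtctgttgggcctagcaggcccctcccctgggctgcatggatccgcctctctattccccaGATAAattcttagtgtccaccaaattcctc
Hlx: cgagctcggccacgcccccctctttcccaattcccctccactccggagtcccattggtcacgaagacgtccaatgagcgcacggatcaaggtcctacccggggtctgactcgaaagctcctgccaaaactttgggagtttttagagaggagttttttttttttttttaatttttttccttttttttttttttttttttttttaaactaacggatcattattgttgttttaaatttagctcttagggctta
Isl1: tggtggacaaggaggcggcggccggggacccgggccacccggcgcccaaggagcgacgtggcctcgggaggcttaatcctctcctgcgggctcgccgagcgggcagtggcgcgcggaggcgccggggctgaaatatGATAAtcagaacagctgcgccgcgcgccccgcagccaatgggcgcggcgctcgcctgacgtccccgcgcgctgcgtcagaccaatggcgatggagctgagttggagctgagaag
Over the 300-base RefSeq window of each gene (250 bases before the start and 50 after it, both strands searched), GATAA occurred 1 time for Tcf21, 30 bases before the start. It occurred 2 times for Isl1, 114 bases before the start and at base 12 counted from it. None was found in the windows of the other 5 members, Hlx among them, against 25.4% of all 32851 windows in the RefSeq table with at least 1. The letters CCAAT, a common promoter element, were in the windows of 5 of the 7 members and in 37.4% of all windows. Hlx and Nkx2-3 held CCAAT 3 times each, and Tcf21 and Barx1 did not hold it. The E-box letters CANNTG were in 4 member windows and 72.3% of all windows, and AAGTG, the core bound by Nkx2 factors, in none of the 7 and 46.4% of all. These are matches of letters and not binding sites. The windows also differed in base composition, from 44.3% G and C for Hlx to 84.7% for Barx1, against a median of 52.7% over all windows.

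Tcf21 had the widest gap among the members. Its level was 4.93, 6.61, 6.08 and 8.01 in ventral replicates 1 to 4, against 3.10, 2.72, 2.80 and 3.80 in dorsal replicates 1 to 4. All ventral arrays lay above all dorsal arrays, with 1.13 between the lowest ventral and the highest dorsal value. Ventral tissue averaged 6.41 ± 1.28 and dorsal tissue 3.11 ± 0.49 (SD, n = 4 each), a difference of 3.30 (SE 0.38, 95% interval 2.41 to 4.19). On 3 of the 4 dorsal arrays Tcf21 lay under the array's own median (medians 3.59 to 3.65), where background limits a difference, so no fold is given. In bulk tissue of this kind, fewer cells of a type and less RNA per cell cannot be told apart. The fit of limma gave an unadjusted p = 4.56e-05 and an adjusted p = 0.0717 over the genes tested, which missed the threshold of 0.05. With 1 replicate number left out in turn, the fit gave 3.79 without number 1 (adjusted p = 0.00775), 3.10 without number 2 (adjusted p = 0.272), 3.31 without number 3 (adjusted p = 0.417) and 3.00 without number 4 (adjusted p = 0.137). Number 1 was the one with the smallest difference, so a wider value without it follows from leaving it out.

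Hlx, the homeobox factor of gut and liver mesenchyme, was higher in ventral tissue by a smaller and more even amount. It stood at 5.48, 6.23, 6.01 and 6.39 in ventral replicates 1 to 4, against 4.65, 5.11, 4.88 and 5.07 in dorsal replicates 1 to 4. Again the groups did not overlap, and every value lay above its array's median. The means were 6.03 ± 0.40 in ventral and 4.93 ± 0.21 in dorsal tissue (SD, n = 4 each), a 2.15-fold difference in intensity. The difference was 1.10 (SE 0.18, 95% interval 0.68 to 1.53, adjusted p = 0.181 in limma) and ranged from 0.83 in replicate number 1 to 1.33 in number 4. For Tcf21 the lowest and highest differences also fell in numbers 1 (1.83) and 4 (4.21). The ventral arrays took the same order for both genes, with replicate 1 lowest, then 3, then 2, then 4. The dorsal arrays did not, since dorsal replicate 2 was lowest for Tcf21 (2.72) and highest for Hlx (5.11). Over the 8 arrays the levels of Tcf21 and Hlx correlated at r = 0.96, a description that includes the tissue difference they share.

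**Figure D1:**
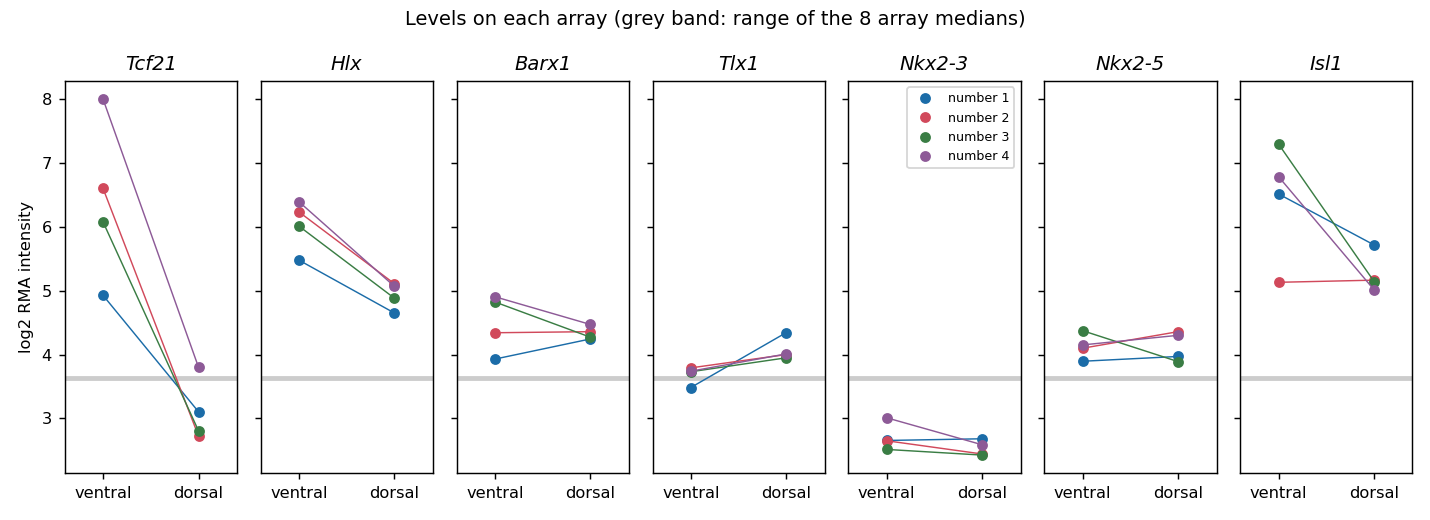
Log2 RMA intensity (vertical axis) of the 7 members on each array, ventral left and dorsal right in each panel. Points of 1 colour and the line joining them share a replicate number, and the grey band spans the 8 array medians. Tcf21 and Hlx are higher on all 4 ventral arrays than on any dorsal array, Tlx1 is lower, and Nkx2-3 lies under the band throughout.

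Isl1, a LIM-homeodomain factor, was higher on 3 ventral arrays and not on the fourth. Its level was 6.51, 5.13, 7.30 and 6.79 in ventral replicates 1 to 4, against 5.72, 5.16, 5.14 and 5.01 in dorsal replicates 1 to 4. Ventral replicate 2 lay within the dorsal range, and the other ventral arrays lay above it. The means were 6.43 ± 0.93 in ventral and 5.26 ± 0.31 in dorsal tissue (SD, n = 4 each), a 2.26-fold difference in intensity. The difference was 1.17 (SE 0.36, 95% interval 0.33 to 2.02) with an unadjusted p = 0.0134 and an adjusted p = 0.435 in limma. By replicate number 1 to 4 it was 0.80, -0.034, 2.16 and 1.77. With 1 number left out it was 1.30 without number 1 (unadjusted p = 0.0207), 1.58 without number 2 (unadjusted p = 0.0023), 0.85 without number 3 (unadjusted p = 0.0635) and 0.97 without number 4 (unadjusted p = 0.0596) in limma, so the last 2 end its unadjusted p under 0.05.

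Genes that mark sympathetic neurons and chromaffin cells of the adrenal, in which Isl1 is also made, varied between the ventral arrays as well. The mean level of 14 such genes was 6.17, 4.19, 5.56 and 4.70 in ventral replicates 1 to 4, against 4.87, 4.60, 4.29 and 4.53 in dorsal replicates 1 to 4. Ventral replicate 2, where Isl1 was low, had the lowest mean of the 8 arrays. Dbh, the enzyme that makes noradrenaline, stood at 9.88, 3.94, 8.51 and 6.00 in ventral replicates 1 to 4. It stood at 6.86, 6.47, 4.70 and 6.35 in dorsal replicates 1 to 4, so that its groups overlapped widely. Among ventral arrays Isl1 was highest in replicate 3, and the list mean was highest in replicate 1. Single genes of the list differed in this. Insm1, Gata3, Stmn2 and Elavl4 were highest in ventral replicate 3, and the others in ventral replicate 1. Of the 12 tested genes of the list, 10 were higher and 2 lower in ventral tissue, with a median difference of 0.68 against -0.0039 over all genes tested. At an unadjusted p under 0.05, 3 were higher and 0 lower: Ret, a neurotrophic factor receptor (0.66, SE 0.16), Ddc, which makes dopamine (1.20, SE 0.27), and Chgb, a granule protein (2.07, SE 0.61). In ventral replicate 2, Ret (4.46) and Ddc (3.90) lay above their highest dorsal values (4.01 and 3.81). Chgb (4.41) lay within its dorsal range there. Prph, a neuronal filament gene of the list, lay under the median on all 8 arrays. The part of these cells in the Isl1 difference was not tested.

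Markers of other cell types that make Isl1 were looked at in the same way. Among motor and sensory neuron genes, 3 of 11 (Lhx3, Chat and Slc18a3) lay under the array median on all 8 arrays, and the list mean ranged from 4.00 to 4.23 in ventral and 3.90 to 4.57 in dorsal tissue. Its highest mean, 4.57, was that of dorsal replicate 1, the dorsal array with the highest Isl1 level. Of 13 genes of gut and pancreas epithelium, 5 lay under the median on all 8 arrays, among them the pancreatic factors Pdx1 and Ptf1a. The list mean was 3.71 to 4.10 in ventral and 3.38 to 4.14 in dorsal tissue. Of the 5 tested, 5 were higher and 0 lower in ventral tissue, with a median difference of 0.17. The 1 gene at an unadjusted p under 0.05 was Epcam (0.45, SE 0.19, unadjusted p = 0.0453 in limma). The part of such cells in the Isl1 difference was not tested. Gcg, the glucagon gene of islet alpha cells, was picked out after its values were seen. It stood at 5.56 in ventral replicate 4 and at 2.81 to 3.17 on the other ventral arrays, against 2.66 to 3.40 on the dorsal arrays.

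**Figure D2:**
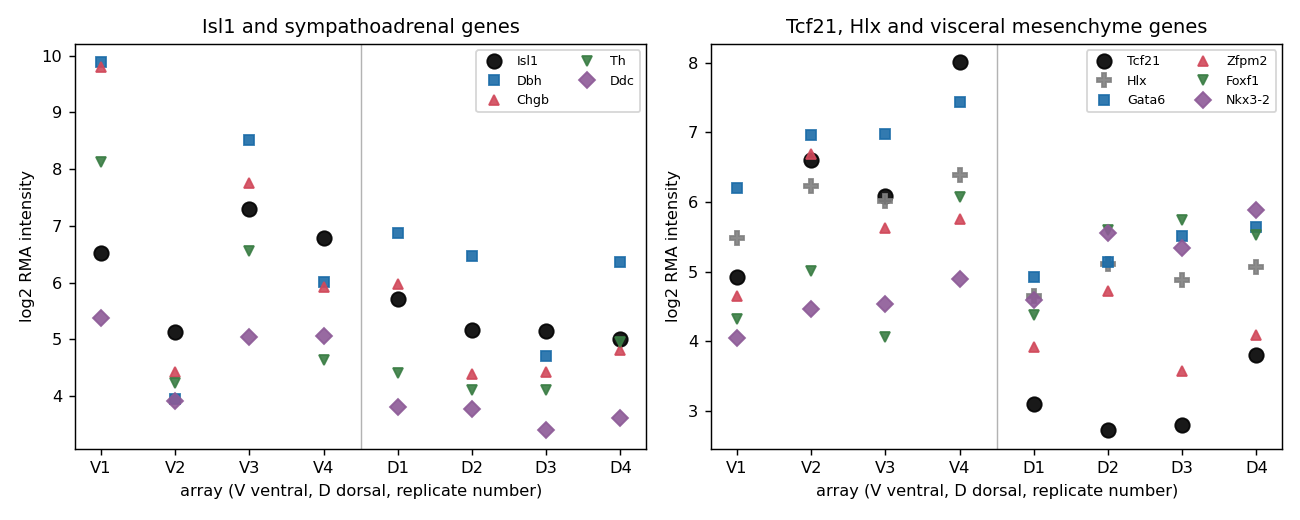
Log2 RMA intensity (vertical axis) by array (horizontal axis, ventral replicates 1 to 4 left of the line and dorsal replicates 1 to 4 right of it). The left panel sets Isl1 beside Dbh, Chgb, Th and Ddc, each at its lowest ventral value in replicate 2. Ddc (3.90) still lay above all dorsal arrays there. The right panel sets Tcf21 and Hlx beside Gata6, Zfpm2, Foxf1 and Nkx3-2.

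Tlx1, the homeobox factor required for the spleen, lay on the other side of 0. It stood at 3.48, 3.79, 3.73 and 3.74 in ventral replicates 1 to 4, against 4.34, 4.00, 3.95 and 4.01 in dorsal replicates 1 to 4. The groups did not overlap, but only 0.16 lay between them, and the ventral values were close to the array medians. Means were 3.69 ± 0.14 in ventral and 4.08 ± 0.18 in dorsal tissue (SD, n = 4 each), a difference of -0.39 (SE 0.16, 95% interval -0.78 to -0.0055). In limma the unadjusted p was 0.0476 and the adjusted p 0.599. Replicate number 1 gave -0.86, against -0.21 to -0.27 in the other three, and without it the difference was -0.23 (unadjusted p = 0.199, adjusted p = 0.78). Without number 2, 3 or 4 the unadjusted p was 0.0598 to 0.0732 in limma. Dorsal replicate 1, where Tlx1 was highest, also had the highest mean of motor and sensory neuron genes (4.57), in which Slc17a6, a glutamate transporter, stood at 5.21 there against 2.89 to 3.02 on the other dorsal arrays. The mean of 10 mesonephros and gonad genes was highest there too, at 3.26 to 3.67 on the ventral arrays, 3.85 in dorsal replicate 1 and 3.20 to 3.37 on the other dorsal arrays. Lhx1 (4.92), Pax2 (4.79) and Pax8 (3.76) stood out most in dorsal replicate 1. Lhx9, Star and Amhr2 were the highest of the dorsal arrays there by less. Emx2, Cdh16, Nr5a1 and Cyp11a1 lay within their range on the other dorsal arrays. Of the 3 genes of that list tested, 1 was higher and 2 lower in ventral tissue, and Lhx1, Pax2 and Pax8 were not among those tested. The part of these cells in the Tlx1 difference was not tested.

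For the remaining members no difference was detectable at this precision. Barx1, the stomach mesenchyme factor, stood at 3.93, 4.34, 4.82 and 4.91 in ventral replicates 1 to 4, against 4.24, 4.36, 4.27 and 4.47 in dorsal replicates 1 to 4. Scatter was wider on the ventral side, whose arrays lay both above and below the dorsal range. The difference was 0.16 (SE 0.20, 95% interval -0.30 to 0.63, adjusted p = 0.891 in limma). Nkx2-5, the heart and spleen factor, stood at 3.89, 4.10, 4.37 and 4.15 in ventral replicates 1 to 4, against 3.97, 4.36, 3.89 and 4.30 in dorsal replicates 1 to 4. These values covered nearly the same range in both tissues, with means of 4.13 ± 0.20 in ventral and 4.13 ± 0.24 in dorsal tissue (SD, n = 4 each). The 95% interval of its difference, -0.41 to 0.41, still allows a change of that size in either direction. Heart muscle genes lay on both sides of 0. Of 10 listed 5 were tested, 3 higher and 2 lower in ventral tissue with a median difference of 0.038, and Myh7, Ryr2 and Actn2 lay under the median on all 8 arrays. The list mean was 3.62 to 4.45 in ventral and 3.73 to 3.76 in dorsal tissue. The 1 gene at an unadjusted p under 0.05 was Myl7, a myosin light chain of the heart atria, which reached 7.47 in ventral replicate 2 and 6.30 in ventral replicate 4, with 3.48 and 3.65 on the other ventral arrays and 3.17 to 3.69 on the dorsal arrays. Nkx2-5 was not highest on those arrays.

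Nkx2-3, which in mice acts in spleen and gut mesenchyme, was the member that failed the filter. It stood at 2.65, 2.65, 2.51 and 3.01 in ventral replicates 1 to 4, against 2.68, 2.44, 2.42 and 2.58 in dorsal replicates 1 to 4. All 8 values lay under the medians of their arrays, so no difference could be read at this signal. With no filter on low values the difference was 0.17 (SE 0.10, adjusted p = 0.868 in limma).

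**Figure D3:**
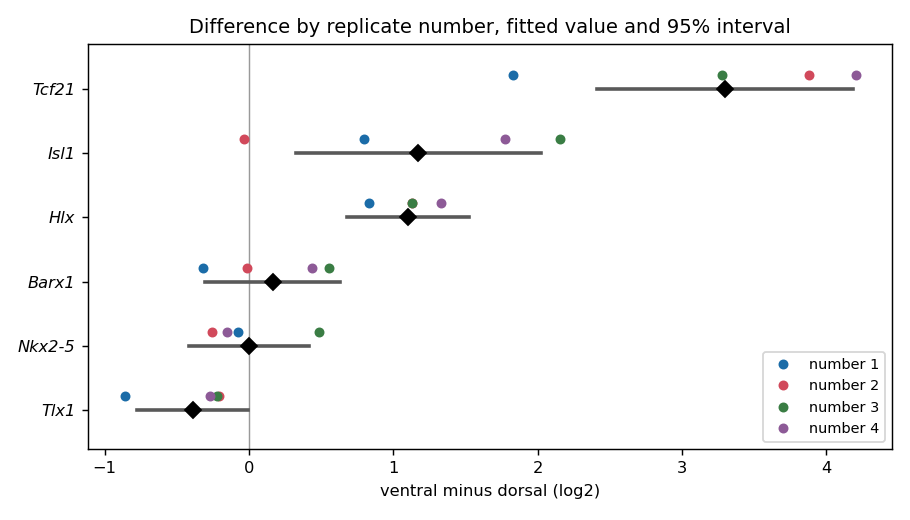
Ventral minus dorsal difference on the log2 scale (horizontal axis) for the 6 members tested. Diamonds and bars give the fitted value and its 95% interval, and coloured points the difference in each replicate number. The intervals of Tcf21, Isl1 and Hlx lie above 0, that of Tlx1 reaches -0.0055, and those of Barx1 and Nkx2-5 span 0.

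Of the 6 members tested, 4 were higher and 2 lower in ventral tissue, with a median difference of 0.63. Of the 2 lower, Nkx2-5 lay at -0.00019, with a sign that changed between settings. Among all 12416 genes tested, 6112 were higher and 6304 lower. Of the members, 0 passed an adjusted p of 0.05 in limma. In that fit 0% of the 12416 genes passed, while 1026 (8.26%) had an unadjusted p under 0.05. Without the replicate number as a block, 4 genes passed, none of them a member. At an unadjusted p under 0.05, 3 members were higher (4.08% of all genes tested) and 1 was lower (4.18% of all genes tested). Tcf21 was the only member at an adjusted p under 0.1, where 13 genes (0.105%) stood. It passed the filter through its 4 ventral arrays and 1 dorsal array, and with no filter on low values its adjusted p was 0.126. Groups did not overlap for 3 members, 2 higher and 1 lower in ventral tissue, against 2.01% of genes tested for ventral higher and 2.38% for ventral lower. The members were proposed with earlier results of these data known, so these counts are a description of the 7 genes.

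Gata6 was among the genes nearest to both Tcf21 and Hlx when tested genes, predicted ones left out, were ranked by Pearson's r with each member over the 8 arrays. The genes nearest to Tcf21 were Etfb, a mitochondrial electron carrier (r = 0.97), Gata6, a zinc finger factor of visceral mesenchyme and endoderm (r = 0.97), and Adam10, a membrane protease (r = 0.97). Nearest to Hlx were the metalloprotease Adam12 (r = 0.97), Gata6 again (r = 0.97) and the neurotensin receptor Ntsr1 (r = 0.97). Gata6 stood at 6.20, 6.96, 6.98 and 7.44 in ventral replicates 1 to 4, against 4.92, 5.14, 5.52 and 5.65 in dorsal replicates 1 to 4, with no overlap. Its difference was 1.59 (SE 0.18, adjusted p = 0.0717 in limma). Nearest to Tlx1 was Hoxb6, a factor of the trunk body axis (r = 0.98), at 5.47 to 5.91 in ventral and 6.21 to 6.62 in dorsal tissue. Eif4enif1 (r = 0.95) and Scml2 (r = 0.95) came next.

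For Barx1 and Nkx2-5, which had little or no tissue difference, the nearest genes followed the scatter between arrays. Barx1 was nearest to Txnrd2 (r = 0.98), Dkc1 (r = 0.97) and Stxbp6 (r = 0.93), and Nkx2-5 to Tmem19 (r = 0.97), Brca2 (r = 0.95) and Vcl (r = 0.94). Isl1 was nearest to Ak1 (r = 0.97), Lce1j (r = 0.96) and Akr1b8 (r = 0.95), and no sympathoadrenal gene was among its nearest 3. Between members, Isl1 correlated at r = 0.61 with Tcf21 and r = 0.54 with Hlx, and Tlx1 at -0.61 with Tcf21 and -0.68 with Hlx. These values over 8 arrays include the difference between the tissues and are given as descriptions.

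Other regulators of visceral mesenchyme lay on both sides of 0. Of 19 genes listed 18 were in the table and 16 were tested, with 10 higher, 6 lower, a median difference of 0.54 and 0 called in limma at an adjusted p of 0.05. At an unadjusted p under 0.05, 5 were higher and 5 lower. Beside Gata6, those higher included its cofactor Zfpm2, at 5.68 ± 0.83 in ventral and 4.08 ± 0.48 in dorsal tissue (SD, n = 4 each). The nuclear receptor Nr2f2 was at 7.20 ± 0.68 in ventral and 5.98 ± 0.55 in dorsal tissue (SD, n = 4 each). Osr1, a zinc finger factor of intermediate and lateral mesoderm, differed by 0.72 (SE 0.28). Sfrp1, a secreted Wnt inhibitor that Barx1 promotes in mouse stomach, differed by 0.80 (SE 0.19). Its relative Sfrp2 was not among the 5, with a difference of 0.46 (SE 0.22, unadjusted p = 0.0699 in limma).

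The lower genes at that p were the forkhead factors Foxf2 (-1.34, SE 0.38) and Foxl1 (-0.45, SE 0.19), Six2 (-0.54, SE 0.14), Zfhx3 (-0.64, SE 0.20) and Nkx3-2 (-0.86, SE 0.18). Nkx3-2 is a homeodomain factor of both the spleen and the sclerotome. It stood at 4.05, 4.46, 4.53 and 4.89 in ventral replicates 1 to 4, against 4.59, 5.55, 5.34 and 5.88 in dorsal replicates 1 to 4, and was lower in all 4 replicate numbers although the groups overlapped. Genes of sclerotome and cartilage were lower in ventral tissue beside it, with 10 of 11 tested below 0 (median -1.82), all 10 at an unadjusted p under 0.05. Their list mean was 4.16 to 4.48 in ventral and 5.45 to 6.44 in dorsal tissue. The part of these cells in the Nkx3-2 difference was not tested. Foxf1, a Hedgehog target of gut mesenchyme, differed by -0.44 (SE 0.35).

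**Figure D4:**
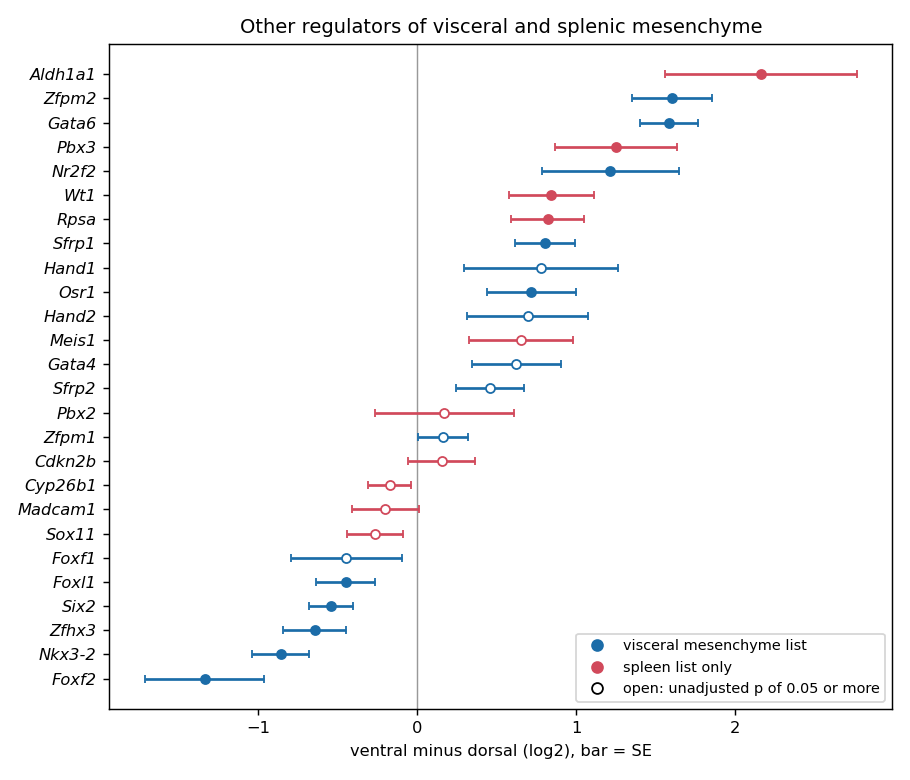
Ventral minus dorsal difference on the log2 scale (horizontal axis, bars are the SE) of the tested regulators of visceral mesenchyme (blue) and of further genes on the spleen list (red). Open points have an unadjusted p of 0.05 or more. Aldh1a1, Zfpm2 and Gata6 lie farthest to the right and Foxf2 and Nkx3-2 farthest to the left.

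Among genes tied to the spleen, 12 of 14 listed were in the table and 11 were tested, with 7 higher, 4 lower, a median difference of 0.17 and 0 called in limma at an adjusted p of 0.05. At an unadjusted p under 0.05, 4 were higher (Aldh1a1, Pbx3, Wt1 and Rpsa) and 1 lower (Nkx3-2). Wt1, a zinc finger factor of mesothelium that mice need to form a spleen, stood at 5.05, 6.31, 5.49 and 6.15 in ventral replicates 1 to 4, against 5.09, 4.84, 4.67 and 5.03 in dorsal replicates 1 to 4. Ventral replicate 1, where Tcf21 and Hlx were also lowest for that tissue, lay within the dorsal range of Wt1. Aldh1a1, an enzyme of retinoic acid synthesis, had 4.70, 7.93, 8.86 and 5.24 in ventral replicates 1 to 4, against 4.16, 5.11, 4.49 and 4.31 in dorsal replicates 1 to 4. Its ventral values split into 2 high and 2 low arrays and did not follow those of Tcf21. Pbx3, a homeodomain cofactor, differed by 1.25 (SE 0.38) with no overlap, and Rpsa, a ribosomal protein gene mutated in people born without a spleen, by 0.82 (SE 0.23).

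Genes that lie downstream of a member in mouse spleen gave small differences. Madcam1, an adhesion molecule that depends on Nkx2-3, averaged 5.19 ± 0.06 in ventral and 5.39 ± 0.34 in dorsal tissue (SD, n = 4 each). Cdkn2b, a cell cycle inhibitor held down by Nkx2-5, averaged 4.28 ± 0.39 in ventral and 4.12 ± 0.26 in dorsal tissue (SD, n = 4 each). Neither had an unadjusted p under 0.05 (0.372 and 0.483).

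Binding partners of the members lay evenly on both sides of 0. Of 13 listed, 12 were in the table and all of these were tested, with 6 higher, 6 lower, a median difference of -0.064 and 0 called in limma at an adjusted p of 0.05. Among the E proteins, which pair with tissue-specific factors such as Tcf21, Tcf4 was at 7.63 ± 0.70 in ventral and 8.74 ± 0.33 in dorsal tissue (SD, n = 4 each), lower in 4 of 4 replicate numbers (-1.11, SE 0.26, adjusted p = 0.287). Tcf3 differed by 0.10 (SE 0.18) and Tcf12 by -0.29 (SE 0.19). Ldb1, the adaptor of LIM-homeodomain factors such as Isl1, was even, at 8.63 ± 0.14 in ventral and 8.60 ± 0.18 in dorsal tissue (SD, n = 4 each).

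Markers of further cell types also varied between arrays. Endothelial genes, for the wall of the aorta, had a list mean of 4.85 to 5.24 in ventral and 4.27 to 5.43 in dorsal tissue, with 1 of 10 (Cldn5) under the median on all 8 arrays. In mesothelium, where Tcf21 is also made, the mean of 10 genes was 4.05, 4.39, 3.87 and 4.29 in ventral replicates 1 to 4, against 3.66, 3.82, 3.64 and 4.41 in dorsal replicates 1 to 4. Of 7 tested, 4 were higher and 3 lower. At an unadjusted p under 0.05 in limma, 2 were higher (Krt7 and Wt1) and 0 lower. Dorsal replicate 4, the sole dorsal array with Tcf21 above the median, had the highest of these means. Upk3b stood out most there (7.57, against 3.74 to 4.15 on the other dorsal arrays). Wt1, Upk1b and Gpm6a lay within their range on the other dorsal arrays, and the remaining genes of the list were the highest of the dorsal arrays there. Liver genes were also high in replicate number 4, with a list mean of 5.99 in ventral and 7.65 in dorsal replicate 4, and 3.31 to 3.43 on the other ventral and 3.37 to 3.45 on the other dorsal arrays. Without number 4 the Tcf21 difference was 3.00 (adjusted p = 0.137). Smooth muscle genes were higher in ventral tissue for 9 of 9 tested (median 0.44, list mean 4.69 to 5.62 in ventral and 4.38 to 4.73 in dorsal tissue). Leukocyte genes, beside Hlx, which blood cells also make, were higher for 10 of 10 tested (median 0.67). Their list mean was 4.67, 4.68, 4.36 and 4.33 in ventral replicates 1 to 4. In dorsal replicates 1 to 4 it was 3.83, 3.98, 3.87 and 4.35. At an unadjusted p under 0.05 in limma, 4 leukocyte genes were higher and 0 lower in ventral tissue. These were Tyrobp, C1qb, Ctss and Spi1, each without overlap. Among ventral arrays the list mean was lowest in replicate 4, where Hlx was highest. Single genes differed in this, with C1qb highest in ventral replicate 4 (6.09) and Tyrobp in ventral replicate 1 (6.95). Ptprc, Cd3e and Il7r lay under the median on all 8 arrays. The part of these cells in the differences of Tcf21 and Hlx was not tested.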

How the data were processed

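Dorsal and ventral aortic tissue was measured on 8 arrays. Per the labels' protocols, picogram amounts of total RNA were amplified (Ovation Pico) before labelling, which can add spread for weak genes. The values were deposited as log2 intensities that come from Affymetrix Expression Console with RMA, per the submitters' processing notes, with versions not given in the sources used here. RMA equalises arrays, so differences are relative to other genes. Array medians were 3.59 to 3.65. Of 25429 rows, 24675 had 1 symbol and 754 had none in the platform table. RefSeq (GRCm38.p6) gave current symbols by Entrez number, and promoter windows, found for 7 of 7 members, came from RefSeq as well.

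Genes above the array median on at least 4 of 8 arrays (12416) were fitted with limma 3.58.1 in R 4.3.3 (lmFit, eBayes with trend and robust), with the replicate number as a block, since both tissues came from the same embryos. The test is two-sided with Benjamini-Hochberg adjustment over all genes tested. Same-numbered arrays' deviations correlated at 0.11, 0.03, 0.02 and 0.12 across genes (-0.13 to 0.10 for other numbers). They were above 0.1 for 2 of the 4 numbers, but so was ventral replicate 3 with dorsal replicate 1 (0.102). Liver genes were high in both tissues of number 4 (list mean 5.99 in ventral and 7.65 in dorsal tissue). These values do not settle whether numbers pair embryos. The fit was tested on simulated data. Named genes are the members and the 3 genes most like each tested member. From the visceral mesenchyme, spleen and binding partner lists they are those at an unadjusted p under 0.05 up to 4, with known partners and targets. In the cell type lists not every gene at such a p is named. Other list genes in the text, such as Foxf1, Foxf2, Nr2f2, Osr1 and Dbh, were chosen after their values were seen. Members and lists were chosen with earlier results of these data known. Slides and scan dates were not known and not fitted. Alternatives changed the block, filter, eBayes settings, array weights, normalization, centring and the arrays used.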

Additional observations from a re-analysis of the deposited data

Results flagged for a closer look

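The level of Tlx1 in dorsal replicate 1, 4.34, stood apart from the other dorsal arrays (3.95 to 4.01), by a gap test on groups of 4. It was the 1 group to do so of the 14 looked at (7 members in each tissue). Chance alone flags about 1 in 20 such groups, so 1 flag among 14 groups is not unusual.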

How the results depend on the processing

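The count of genes called was 0 with the replicate block. It was 4 with no replicate block, 4 with a random replicate block, 10 with the stricter filter (mean above the 75th percentile) and 4 with neither block nor filter, a setting added after seeing the data. With arrays left out it ranged from 0 to 20: it was 9 without replicate number 1, 0 without any other number and, with no replicate block, 20 without ventral replicate 1, 8 without dorsal replicate 1, 9 without dorsal replicate 4 and 0 without any other single array. Tcf21 passed in 2 of its 20 alternatives: without replicate number 1 (3.79, adjusted p = 0.00775) and, with no replicate block, without ventral replicate 1 (3.79, adjusted p = 0.0292). With arrays left out its difference ranged from 2.77 to 3.79. No other member passed in any alternative run, and the block changed no member's call. Hlx (0.98 to 1.29), Isl1 (0.85 to 1.61), Barx1 (0.0284 to 0.35) and Tlx1 (-0.45 to -0.23) kept their direction in every alternative in which they were tested, and Nkx2-3 in the 1 it had. Nkx2-5 changed sign with array weights (0.0449), with centring on array medians (0.0025) and with some arrays left out (-0.16 to 0.0864). The count of members without overlap was 1 under the stricter filter, which kept 2 members, and 3 to 4 with arrays left out. Groups of fewer arrays separate more readily by chance. The share over all genes was not counted in these settings, so these counts cannot be set against it. Tcf21, Barx1, Tlx1, Nkx2-5 and Nkx2-3 did not pass the stricter filter and have no value there. Signal near the array median limits what can be read for Tlx1, Nkx2-3 and dorsal Tcf21.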
